A study of Mus musculus with 2 samples.

Results

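Expression of 10 regulatory T cell and checkpoint genes, Foxp3, Ctla4, Il2ra, Icos, Ikzf2, Tnfrsf4, Tnfrsf18, Pdcd1, Lag3 and Tigit, was followed in single lung cells of 1 control mouse and 1 mouse of the fibrosis group. The genes were taken by symbol, and all 10 were among the 27998 genes of the files. Their transcripts were counted in cells with at least 1 UMI (unique molecular identifier, 1 captured transcript) summed over Cd3d, Cd3e and Cd3g and none of Cd79a, called T-gated below, and in the cells outside that gate. Cd3d, Cd3e and Cd3g encode chains of the T cell receptor complex and Cd79a a chain of the B cell receptor. The gate held 1822 of 15453 cells. Both mice were C57Bl/6j males of 3 months. Particles were given into the trachea at 100 µg and the lungs were taken 14 days later. TiO2 and crocidolite asbestos both stand in the protocol of either mouse, with no particle tied to a mouse, and the group names control and fibrosis are those of the labels. The suspension was of whole lung, digested with dispase and not sorted for any cell type according to the labels, and each group was 1 mouse and 1 library. No difference between the libraries therefore has a replicate check, and the 95% intervals given below cover counting error only.

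Regulatory T cells restrain other lymphocytes and depend on the transcription factor Foxp3. They carry the high-affinity interleukin-2 receptor chain encoded by Il2ra, and Ctla4, which competes with the costimulatory receptor Cd28 for its ligands on antigen-presenting cells. Icos, Tnfrsf4 (OX40) and Tnfrsf18 (GITR) are costimulatory receptors, and Ikzf2 encodes Helios, a zinc finger factor found in many regulatory T cells. Pdcd1 (PD-1), Lag3 and Tigit are inhibitory receptors of activated or exhausted T cells, and in the lung such cells lie close to antigen-presenting cells and the epithelium. None of these genes belongs to regulatory T cells alone. Conventional activated T cells, NK cells, innate lymphoid cells and dendritic cells can carry several of them.

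In the GENCODE annotation of GRCm38, Foxp3 (ENSMUSG00000039521) lies on the plus strand at chrX:7573644-7595245. Ctla4 at chr1:60887000-60915832 and Icos at chr1:60977927-61000320 are neighbours on the plus strand with 62094 bases between them. Tnfrsf4 at chr4:156013843-156016612 and Tnfrsf18 at chr4:156026164-156028895 lie 9551 bases apart, also on the plus strand. Lag3 at chr6:124904361-124911705 and Cd4 share the minus strand with 16139 bases between them. Il2ra lies at chr2:11642807-11693193 on the plus strand. Ikzf2 at chr1:69531214-69687245, Pdcd1 at chr1:94038305-94052553 and Tigit at chr16:43648867-43664146 lie on the minus strand. The counts were of transcript 3′ ends and do not tell which start site was used.

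RefSeq gave promoter windows of 300 bases, 250 before to 50 after a start, on GRCm38.p6 for 7 of the 10 genes, with 8 windows in all. The windows of Foxp3 and of the 4 other genes that were at least 2-fold higher in T-gated cells of the fibrosis library and have an entry are shown, because these genes were higher together. Each was searched on both strands for 4 motifs. They were the NFAT core TGGAAA, which 21.4% of all 32851 RefSeq promoters of this length hold, a kappaB site of GGGA and CC with any 4 bases between them (20.7%), a forkhead site TGTTTNC (20.5%) and a Runx site TGTGGTT (5.27%). Capitals mark the matches, written 5′ to 3′ on the strand of the gene.
Foxp3, chrX:7579426-7579725, plus strand: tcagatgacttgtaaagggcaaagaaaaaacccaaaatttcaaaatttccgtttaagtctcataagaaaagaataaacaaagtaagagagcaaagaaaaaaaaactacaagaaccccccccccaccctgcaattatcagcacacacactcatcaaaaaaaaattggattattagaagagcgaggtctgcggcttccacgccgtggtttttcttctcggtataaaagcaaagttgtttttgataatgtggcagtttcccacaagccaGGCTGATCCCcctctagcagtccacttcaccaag
Foxp3, chrX:7580233-7580532, plus strand: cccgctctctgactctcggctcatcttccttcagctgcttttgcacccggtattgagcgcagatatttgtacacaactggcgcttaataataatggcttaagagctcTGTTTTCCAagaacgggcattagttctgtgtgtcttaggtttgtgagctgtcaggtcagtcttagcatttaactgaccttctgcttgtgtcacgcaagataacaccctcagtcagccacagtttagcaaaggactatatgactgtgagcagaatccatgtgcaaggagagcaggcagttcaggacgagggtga
Ctla4, chr1:60908775-60909074, plus strand: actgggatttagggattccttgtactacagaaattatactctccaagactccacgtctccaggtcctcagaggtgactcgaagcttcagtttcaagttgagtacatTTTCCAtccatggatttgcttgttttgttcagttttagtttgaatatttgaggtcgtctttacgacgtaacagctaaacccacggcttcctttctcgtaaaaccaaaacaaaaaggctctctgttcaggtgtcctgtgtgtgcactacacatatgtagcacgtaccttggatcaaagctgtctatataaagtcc
Il2ra, chr2:11642542-11642841, plus strand: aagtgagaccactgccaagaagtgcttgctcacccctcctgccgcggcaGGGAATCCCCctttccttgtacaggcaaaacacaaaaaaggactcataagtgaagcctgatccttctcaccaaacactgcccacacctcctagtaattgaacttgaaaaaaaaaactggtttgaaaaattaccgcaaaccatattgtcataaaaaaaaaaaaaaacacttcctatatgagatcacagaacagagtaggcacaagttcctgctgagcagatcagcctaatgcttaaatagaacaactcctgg
Tnfrsf4, chr4:156013445-156013744, plus strand: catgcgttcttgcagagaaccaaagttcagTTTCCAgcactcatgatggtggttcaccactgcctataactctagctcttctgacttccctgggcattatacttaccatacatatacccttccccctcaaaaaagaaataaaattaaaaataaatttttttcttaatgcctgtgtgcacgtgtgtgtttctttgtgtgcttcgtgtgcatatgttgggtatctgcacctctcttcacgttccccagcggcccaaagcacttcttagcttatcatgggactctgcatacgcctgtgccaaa
Pdcd1, chr1:94052504-94052803, minus strand: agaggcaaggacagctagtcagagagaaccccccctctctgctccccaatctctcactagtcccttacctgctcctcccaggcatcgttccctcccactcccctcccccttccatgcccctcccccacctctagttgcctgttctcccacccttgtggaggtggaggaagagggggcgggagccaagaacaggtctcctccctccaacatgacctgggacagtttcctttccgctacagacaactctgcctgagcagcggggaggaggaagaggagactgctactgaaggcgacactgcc
The first Foxp3 window and the Il2ra window each held 1 kappaB match. The second Foxp3 window held 1 forkhead and 1 NFAT match that overlap. Ctla4 and Tnfrsf4 each held 1 NFAT match, and none of the 4 motifs was found in the Pdcd1 window. The matched motifs are common in promoters at large, so the matches describe these sequences only.

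The control library held 8280 cells and 36632591 UMIs and the fibrosis library 7173 cells and 38090308 UMIs. The gate took 887 control cells, 10.7% of that library (10.1 to 11.4), and 935 fibrosis cells, 13.03% (12.3 to 13.8). The median depths of gated cells were 2846 and 2973 UMIs, below the 3972 and 4493 of the cells outside. Of 12 T cell markers, 10 were in the files, and their sum was 2830 and 2098 CPM (counts scaled to a common total of all UMIs in the cells concerned) inside the gate against 55.6 and 61.7 CPM outside. Cd3d, Cd3e and Cd3g are among these 10 and also define the gate, so part of this contrast was set by the gate itself. Transcripts of other cells were also counted inside the gate. A UMI of Sftpc, the surfactant gene of alveolar type 2 (AT2) cells, was found in 98.3% of T-gated cells of either library. The 4 club cell markers summed to 25314 CPM in control and 51545 CPM in fibrosis T-gated cells, the 5 AT2 markers to 16303 and 23426 CPM and the 6 neutrophil markers to 8638 and 3598 CPM. The part of this free or admixed RNA in the differences below was not tested, apart from the comparisons with other cell classes.

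In T-gated cells, 6 of the 9 genes with at least 20 UMIs over both libraries were 2-fold or more higher in CPM in the fibrosis library, against 8.14% of 11394 genes tested the same way. None of the 9 was 2-fold lower, against 2.52% of genes. The 6 were Tnfrsf4, Pdcd1, Ctla4, Il2ra, Foxp3 and Ikzf2. The median log2 ratio was 1.34 for the 9 genes and 0.10 for all genes tested, and 8 of the 9 ratios had a counting interval above 0. The share of all genes with an interval on 1 side of 0 was not computed, here or below. Because libraries and not cells are the units, fewer cells carrying a gene and less RNA per cell cannot be told apart in these sums.

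Among the transcription factors, Foxp3 gave 22 UMIs in the control gate, or 6.75 CPM (4.23 to 10.2), and 69 UMIs in the fibrosis gate, or 17.1 CPM (13.3 to 21.6). The 2 intervals did not overlap, and the fibrosis level was 2.53 times the control level (log2 ratio 1.34, 0.63 to 2.10). A Foxp3 UMI was found in 16 control cells (1.80% of the gate) and 51 fibrosis cells (5.45%). With each cell thinned to 1000 UMIs, which left out no cell, the shares were 0.564% (5 cells) and 2.35% (22 cells), so the order was the same at equal depth. Most of these cells carried a single Foxp3 molecule, with 12 of the 16 control cells and 38 of the 51 fibrosis cells at 1 UMI. In B cell-like cells, which should lack the gene, Foxp3 was found in 0 of 917 control cells at a median of 1833 UMIs and 0 of 369 fibrosis cells at 2499 UMIs. In AT2-like cells outside the gate it was found in 0 of 1027 and 1 of 1596 cells at median depths of 5451 and 5308 UMIs.

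Ikzf2, the Helios gene, gave 212 UMIs (65.0 CPM) in the control gate and 563 UMIs (139 CPM) in the fibrosis gate. The log2 ratio was 1.10 (0.87 to 1.33). It was found in 95 and 176 T-gated cells (10.7% and 18.8%). It was also found in other cells, with 4.48% and 4.45% of AT2-like cells outside the gate holding a UMI. In those AT2-like cells Foxp3 was found in 0 of 1027 and 1 of 1596.

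The receptor for interleukin-2 and the costimulatory receptors were also higher, to different degrees. Il2ra gave 27 UMIs (8.28 CPM) in 23 control cells and 98 UMIs (24.2 CPM) in 63 fibrosis cells, a log2 ratio of 1.55 (0.92 to 2.22). Tnfrsf4 gave 20 UMIs (6.13 CPM) in 16 control cells and 155 UMIs (38.3 CPM) in 83 fibrosis cells. Its ratio of 6.25 (log2 ratio 2.64, 1.97 to 3.39) was the highest of the 10 genes, and no control T-gated cell held more than 2 of its UMIs while the highest fibrosis cell held 13. Icos gave 123 UMIs (37.7 CPM) in 90 control cells and 277 UMIs (68.5 CPM) in 169 fibrosis cells. Its log2 ratio of 0.86 (0.55 to 1.18) stayed under 2-fold although the interval lay above 0. Tnfrsf18, the neighbour of Tnfrsf4, gave 123 UMIs (37.7 CPM) in 106 control cells and 261 UMIs (64.6 CPM) in 146 fibrosis cells. Its log2 ratio was 0.78 (0.46 to 1.10), and its interval did not overlap that of Tnfrsf4. A Tnfrsf18 UMI was also found in 3.71% and 4.34% of B cell-like cells.

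Among the inhibitory receptors, Ctla4 and Pdcd1 were higher in the fibrosis gate and the other 2 were not separated by their counts. Ctla4 gave 26 UMIs (7.97 CPM) in 20 control cells and 103 UMIs (25.5 CPM) in 64 fibrosis cells, a log2 ratio of 1.68 (1.04 to 2.36). Pdcd1 gave 16 UMIs (4.91 CPM) in 10 control cells and 78 UMIs (19.3 CPM) in 49 fibrosis cells, a log2 ratio of 1.98 (1.19 to 2.85). For both genes the levels of the 2 libraries did not overlap within counting error. Lag3, whose product binds MHC class II, gave 12 UMIs (3.68 CPM) in 11 control cells and 25 UMIs (6.18 CPM) in 16 fibrosis cells. The Lag3 log2 ratio was 0.75 with an interval from −0.30 to 1.88, so a difference was not detectable at this depth. Tigit, a receptor for poliovirus receptor family ligands, gave 4 UMIs in the control gate and 9 in the fibrosis gate, a log2 ratio of 0.86 (−0.98 to 3.01). That was too few molecules for it to be among the 9 genes, and the log2 ratio of its shares of thinned cells was −0.08.

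**Figure D1:**
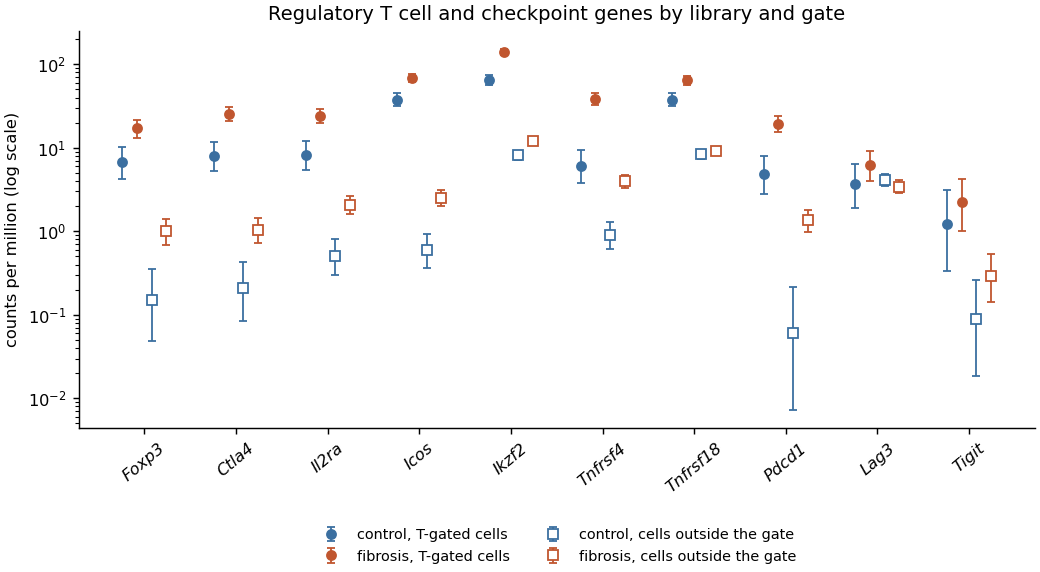
Level of each gene in CPM on a log scale, in T-gated cells (filled circles) and in cells outside the gate (open squares) of the control (blue) and fibrosis (orange) library; bars are exact Poisson 95% intervals of the summed UMIs. In the gate Foxp3 stands at 6.75 CPM in control and 17.1 CPM in fibrosis, and for Lag3 all 4 points lie between 3.44 and 6.18 CPM.

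Outside the gate the same 10 genes had lower CPM, with Lag3 as the exception in the control library. T-gated cells were 2-fold or more above the other cells in 7 of 8 genes with enough UMIs in the control library, against 5.65% of 14176 genes. In the fibrosis library this held for 8 of 9 genes, against 4.8% of 14470 genes. The gate selects on Cd3 transcripts, so a difference in T cell genes between its 2 sides is a description of the gate. The log2 ratio of the gate over the other cells was 5.98 for Icos in control and 4.76 in fibrosis, and 5.49 and 4.10 for Foxp3. Of all Foxp3 UMIs of a library, 81.5% (61.9 to 93.7) fell in the gate in control and 67.0% (57.0 to 75.9) in fibrosis. For Tnfrsf18 these shares were 30.6% and 45.5%, and for Lag3 8.0% and 17.6%.

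The cells outside the gate also differed between the libraries. There, 6 of 9 genes were 2-fold or more higher in fibrosis, against 5.81% of 15192 genes, and none was 2-fold lower, against 3.21%. Foxp3 gave 5 UMIs outside in control and 34 in fibrosis, and Pdcd1 gave 2 and 46. Much of the Foxp3 outside the fibrosis gate came from cells that had Cd3 UMIs and were left out for a Cd79a UMI. There were 69 such cells, and 9 of them held 22 of the 34 Foxp3 UMIs. The same 69 cells held 90 Ikzf2 and 31 Icos UMIs. In control, 80 cells had both Cd3 and Cd79a UMIs, and 1 of them held 3 of the 5 Foxp3 UMIs. Cells with neither held 2 Foxp3 UMIs in 6031 control cells and 12 in 5326 fibrosis cells. In control these were in alveolar macrophage-like cells. In fibrosis they included 3 and 2 cells of alveolar macrophage-like clusters. Another 1 cell each was plasmacytoid dendritic cell-like, classical monocyte-like, AT2-like, AT1-like and ciliated cell-like. Outside the fibrosis gate, 3 Foxp3 cells also lay in cluster 16, described below, and 2 of these had Cd3 and Cd79a UMIs. Cells with Cd79a and no Cd3 UMI held 0 in 1282 and 0 in 843 cells.

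Cells with a Foxp3 UMI carried the other genes of the set more often than the rest of the gate. In the fibrosis library all 9 other genes were found at least 2-fold more often in the 51 Foxp3 cells than in the 884 other T-gated cells, against 8.67% of 8284 genes. In the control library this held for 8 of 9 genes in 16 Foxp3 cells against 871 others, with 15.5% of genes doing so. Pdcd1 and Tigit each rested on 1 control Foxp3 cell. The shares of genes in this paragraph cover genes with a UMI in at least 20 gated cells of each library. Tnfrsf4, Pdcd1, Lag3 and Tigit fell short of that in at least 1 library. The median depth of Foxp3 cells was 2411 UMIs in control and 2973 in fibrosis, and that of the other gated cells 2847 and 2972, so the Foxp3 cells were not deeper by median. After thinning, which left 5 control and 22 fibrosis Foxp3 cells, 3 of 9 genes were 2-fold more frequent in control, with 13.2% of genes doing so, and 7 of 9 in fibrosis, with 24.9%.

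Ikzf2 was the most frequent partner. It was found in 14 of 16 control Foxp3 cells (87.5%, against 9.30% of the others) and in 46 of 51 fibrosis Foxp3 cells (90.2%, against 14.7%). Ctla4 was found in 8 control Foxp3 cells (50%, against 1.38%) and 22 fibrosis Foxp3 cells (43.1%, against 4.75%). Icos was found in 7 (43.8%, against 9.53%) and 32 (62.7%, against 15.5%). Both libraries thus held Foxp3 cells with Helios, Ctla4 and Icos transcripts.

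Tnfrsf4 and Pdcd1 differed more between the libraries in these cells. Tnfrsf4 was found in 4 of 16 control Foxp3 cells (25%, 7.27 to 52.4) and 33 of 51 fibrosis Foxp3 cells (64.7%, 50.1 to 77.6). Pdcd1 was found in 1 of 16 (6.25%, 0.158 to 30.2) and 18 of 51 (35.3%, 22.4 to 49.9). The intervals of the 2 libraries overlapped in both cases, narrowly for Tnfrsf4 and more widely for Pdcd1. Tnfrsf18 was found in 7 and 33 cells and Il2ra in 4 and 18 cells (25% and 35.3%). Lag3 was found in 0 control Foxp3 cells, which allows a share of cells with a UMI of up to 18.8%, and in 3 fibrosis Foxp3 cells, and Tigit in 1 and 3.

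In CPM of the Foxp3 cells themselves, Ctla4 (log2 ratio −0.29, −1.22 to 0.74), Ikzf2 (0.14, −0.32 to 0.62) and Icos (0.50, −0.44 to 1.58) had intervals that included 0. Tnfrsf4 went from 4 to 75 UMIs (log2 ratio 2.28, 0.87 to 4.20) and Pdcd1 from 1 to 32 UMIs (3.05, 0.47 to 8.40). Of 1743 genes with enough UMIs in these cells, 15.1% were 2-fold or more higher. In T-gated cells without Foxp3, Ctla4 was higher in fibrosis by 1.99 on the log2 scale (1.12 to 2.98), Tnfrsf4 by 2.06 (1.28 to 2.94) and Pdcd1 by 1.36 (0.49 to 2.30), with 8.09% of genes 2-fold or more higher. The higher Ctla4, Tnfrsf4 and Pdcd1 sums of the fibrosis gate were thus not limited to cells in which Foxp3 was captured.

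**Figure D2:**
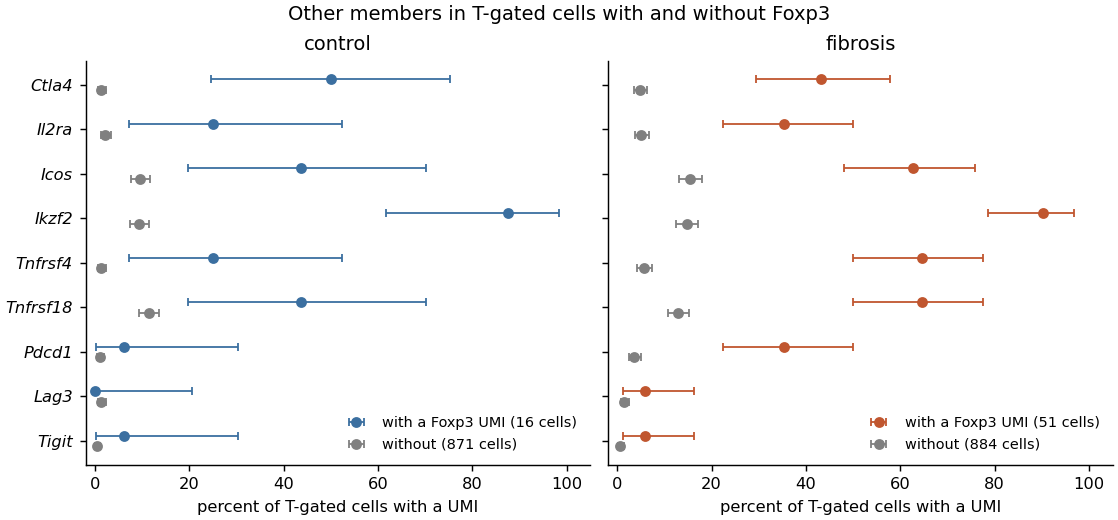
Percent of T-gated cells with at least 1 UMI of each other gene, among cells with a Foxp3 UMI (coloured) and without (grey), in the control library (left, 16 and 871 cells) and the fibrosis library (right, 51 and 884 cells); bars are exact binomial 95% intervals. Ikzf2 stands at 87.5% and 90.2% in Foxp3 cells, and Tnfrsf4 at 25% in control and 64.7% in fibrosis.

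Cells with several of the genes were more frequent in the fibrosis gate. At least 3 of the 10 genes were found in 29 control cells (3.27%) and 108 fibrosis cells (11.6%), and after thinning in 7 (0.789%) and 44 (4.71%). Foxp3 cells held a median of 4 of the 10 genes in control and 5 in fibrosis, with 7 and 9 as the highest. By number of cells, pairs without Foxp3 were led by Ikzf2 in the fibrosis gate. Such numbers rise with how often each gene was found, and Ikzf2 was found in the most cells there (176, then Icos with 169). Ikzf2 was found together with Tnfrsf18 in 76 cells, with Icos in 75, with Tnfrsf4 in 64 and with Ctla4 in 52. The neighbouring genes Tnfrsf4 and Tnfrsf18 were found together in 8 control and 53 fibrosis cells. Outside the gate, 8 control and 38 fibrosis cells held at least 3 of the genes.

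Clustering of all cells, done without the listed genes among the variable ones, placed 8 of the 16 control and 38 of the 51 fibrosis T-gated Foxp3 cells in 1 small cluster. Its 10 leading genes were Fam212a, Cxcr6, Nrgn, Ikzf2, Cd226, Ppbp, Icos, Gata3, Alox12 and Klrg1. Gata3 is a factor of type 2 T cells and group 2 innate lymphoid cells (ILC2), Cxcr6 a receptor of tissue-resident lymphocytes, and Ppbp and Alox12 are known from platelets. By mean log2 ratio over all other cells, its T cell markers stood highest (2.56), then those of proliferating cells (2.28) and ILC2 (2.11). Its leading genes held the ILC2 marker Gata3 and no marker of the T cell list. It was therefore given no cell type name and is cluster 16 in the plots. It held 88 control and 214 fibrosis cells, so most of it came from 1 library, and the cluster and the library cannot be fully told apart. Of its cells, 69 and 170 were in the gate, which made up 7.78% of the control gate and 18.2% of the fibrosis gate.

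Its Foxp3 cells were 11.6% (5.14 to 21.6) of its gated cells in control and 22.4% (16.3 to 29.4) in fibrosis, and the intervals overlapped. By level, whole-cluster Foxp3 was 29.6 CPM (14.8 to 52.9) in control and 75.3 CPM (56.4 to 98.5) in fibrosis, and the T cell-like clusters stood at 6.80 CPM (3.62 to 11.6) and 14.8 CPM (9.56 to 21.8). Of the 25 Foxp3 UMIs in T cell-like clusters of the fibrosis library, 20 were in 7 cells that also had Cd79a UMIs and lay outside the gate. The remaining gated Foxp3 cells were 7 control and 5 fibrosis cells in T cell-like clusters, 1 control cell in a fibroblast-like cluster and, in fibrosis, 4 cells in a mixed cluster, 3 in endothelial cell-like clusters and 1 in a mesothelial cell-like cluster.

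Within the gated cells of cluster 16 the genes were again higher in the fibrosis library. Tnfrsf4 gave 11 UMIs (37.2 CPM) in control and 129 UMIs (223 CPM) in fibrosis, a log2 ratio of 2.58 (1.70 to 3.62). Ctla4 gave 12 and 85 UMIs (1.86, 0.98 to 2.86), and Tnfrsf18 gave 26 and 165 UMIs (1.70, 1.09 to 2.35). The log2 ratio was 1.47 for Il2ra, 1.35 for Pdcd1, 1.22 for Foxp3 (0.26 to 2.31), 1.16 for Ikzf2 and 1.06 for Icos. All 8 of these ratios were 2-fold or more, against 8.44% of 4906 genes in the same cells, which had a median of 0.03. The 8 intervals lay above 0, without a share of all genes to set beside that. Lag3 gave 3 and 10 UMIs and its interval included 0.

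The gated cells of the T cell-like clusters, 602 in control and 511 in fibrosis, gave another picture. Foxp3 gave 10 UMIs in control and 5 in fibrosis, a log2 ratio of −0.76 with an interval from −2.66 to 0.92. In the same clusters 1 control and 7 fibrosis Foxp3 cells with Cd3 and Cd79a UMIs lay outside the gate. They held 3 and 20 Foxp3 UMIs. With all cells of these clusters the Foxp3 level was higher in fibrosis, as given above, so its order depended on the gate. The log2 ratio was 0.24 for Ctla4 (13 and 13 UMIs), 0.22 for Icos, 0.39 for Ikzf2 (−0.01 to 0.80), 0.39 for Tnfrsf4 and −0.11 for Tnfrsf18 (−0.60 to 0.37). The interval of each of the 9 genes with a UMI in both libraries included 0, and 2.87% of 7619 genes were 2-fold or more higher in these cells. The difference between the 2 kinds of cluster was not tested, since each comparison rests on 1 library a group.

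**Figure D3:**
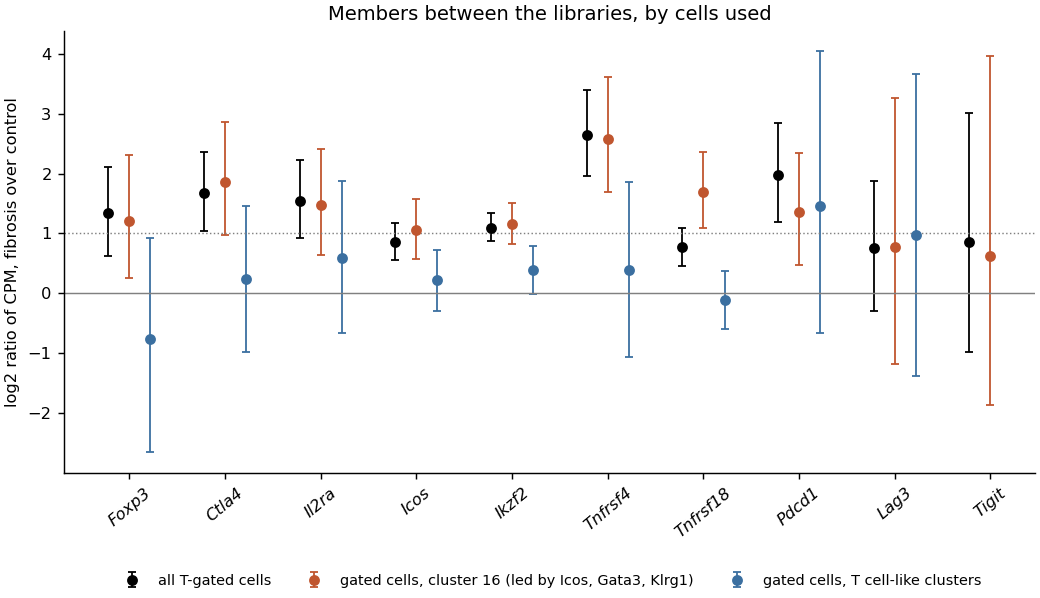
Log2 ratio of CPM, fibrosis over control, for each gene in all T-gated cells (black), in gated cells of cluster 16 (orange) and in gated cells of the T cell-like clusters (blue); bars are exact conditional 95% intervals for counting error, the dotted line is 2-fold, and Tigit has no blue point because fibrosis had 0 UMIs there. Tnfrsf4 stands at 2.64 in all gated cells, 2.58 in cluster 16 and 0.39 in the T cell-like clusters.

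Inside cluster 16, at full depth, cells with a Foxp3 UMI held most of the other genes more often than its remaining gated cells. The share of all genes doing so was not computed here. In fibrosis, with 38 and 132 cells, Ikzf2 was found in 94.7% against 47.7%, Tnfrsf4 in 73.7% against 27.3% and Ctla4 in 52.6% against 21.2%. Icos (71.1% against 49.2%), Tnfrsf18 (68.4% against 32.6%) and Pdcd1 (44.7% against 17.4%) followed. Il2ra was found in 39.5% against 24.2%, Lag3 in 7.89% against 1.52% and Tigit in 5.26% against 3.03%. In control, with 8 and 61 cells, Ikzf2 was found in 7 of 8 (87.5% against 41.0%) and Ctla4 in 5 of 8 (62.5% against 8.20%). There Il2ra (25% against 18.0%) and Pdcd1 (12.5% against 9.84%) were close, with overlapping intervals. Lag3 went the other way, with 0 of 8 against 3.28%.

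ILC2 markers were also higher in the fibrosis gate. The 8 markers summed to 83.1 CPM in control, where 4 of them (Il13, Il5, Calca and Hlf) were at 0, and to 186 CPM in fibrosis, where none was at 0. Of the 8, Il1rl1, Areg and Rora also stand on the list of other regulatory T cell genes described below. Il13 gave 37 UMIs in 8 fibrosis T-gated cells, all in cluster 16. They were 3 of its 38 gated Foxp3 cells (7.89%) and 5 of its 132 other gated cells (3.79%), with overlapping intervals. The part of ILC2 or their RNA in the levels of Icos, Il2ra and the other genes of cluster 16 was not tested.

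A Foxp3 UMI was found more often in cells with Cd4 than in cells with Cd8 transcripts, but 34 of the 51 fibrosis Foxp3 cells had neither. Cells with a Cd4 UMI and none of Cd8a or Cd8b1 numbered 68 in the control gate (7.67%) and 96 in the fibrosis gate (10.3%), and Foxp3 was found in 10 (14.7%, 7.28 to 25.4) and 15 (15.6%, 9.02 to 24.5) of them. The Foxp3 level in these cells was 65.2 CPM in control and 69.9 CPM in fibrosis, a log2 ratio of 0.10 (−0.91 to 1.15), so no difference was detectable among cells in which Cd4 was captured. Of the 8 genes of the set with at least 20 UMIs there, 3 were 2-fold higher in fibrosis, against 6.15% of 2975 genes: Pdcd1 (3.19, 1.19 to 6.31), Tnfrsf4 (2.62, 1.28 to 4.31) and Il2ra (1.32, 0.07 to 2.78). Ctla4 (52.2 and 76.2 CPM, 0.55) and Ikzf2 (209 and 286 CPM, 0.45), which were past 2-fold in the whole gate, were not in these cells, and both intervals included 0. Icos stood at 122 and 130 CPM and Tnfrsf18 at 86.9 and 137 CPM. Cells with Cd8 and no Cd4 UMI held Foxp3 in 0 of 320 control cells, which allows a share of cells with a UMI of up to 0.938%, and 2 of 290 fibrosis cells. Cells with neither made up 55.6% and 58.3% of the gate, 493 and 545 cells, and held Foxp3 in 5 (1.01%) and 34 (6.24%). Of the Foxp3 cells, 11 of 16 in control (68.8%) and 15 of 51 in fibrosis (29.4%) had a Cd4 UMI.

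Outside T cells, several of the receptors had a second place of expression. Lag3 was highest in plasmacytoid dendritic cell-like cells, with 92 UMIs (137 CPM, 110 to 168) in 145 control cells and 50 UMIs (117 CPM, 86.8 to 154) in 110 fibrosis cells. These held 61.3% and 35.2% of all Lag3 UMIs, and the intervals of the 2 libraries overlapped. Among classes of at least 50 cells, type 2 dendritic cell-like (21.2 CPM) and interstitial macrophage-like cells (17.9 CPM) came next in control, which did not differ beyond their counting error.

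Tnfrsf4 in the fibrosis library was highest in 2 classes, cluster 16 at 196 CPM (165 to 232) and migratory dendritic cell-like cells at 178 CPM (141 to 221), whose intervals overlapped. The migratory cells numbered 83 and held 80 Tnfrsf4 UMIs, 27.6% of the library's, of which 77 lay outside the gate. They also held 25 Il2ra UMIs (55.5 CPM) and 36 Tnfrsf18 UMIs (80.0 CPM) and no Foxp3 UMI. The control library had 10 cells of this class, too few for a comparison.

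Tnfrsf18 in control was 102 CPM (72.3 to 140) in cluster 16 and 90.0 CPM (69.4 to 115) in NK cell-like cells, which did not differ beyond counting error, and 52.9 CPM in T cell-like cells. In fibrosis cluster 16 stood at 295 CPM (257 to 338), above NK cell-like cells at 82.0 CPM (54.9 to 118). Among classes of at least 50 cells, Ikzf2 was highest in cluster 16 (255 and 599 CPM), then in T cell-like cells (60.7 and 103 CPM) and then in ciliated cell-like cells at 25.8 and 28.4 CPM, where 59 and 88 UMIs were counted. Tigit had 4 of its 7 control UMIs in NK cell-like cells. For Pdcd1, Ctla4 and Foxp3, cluster 16 and the T cell-like cells had the highest and next highest level in both libraries.

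**Figure D4:**
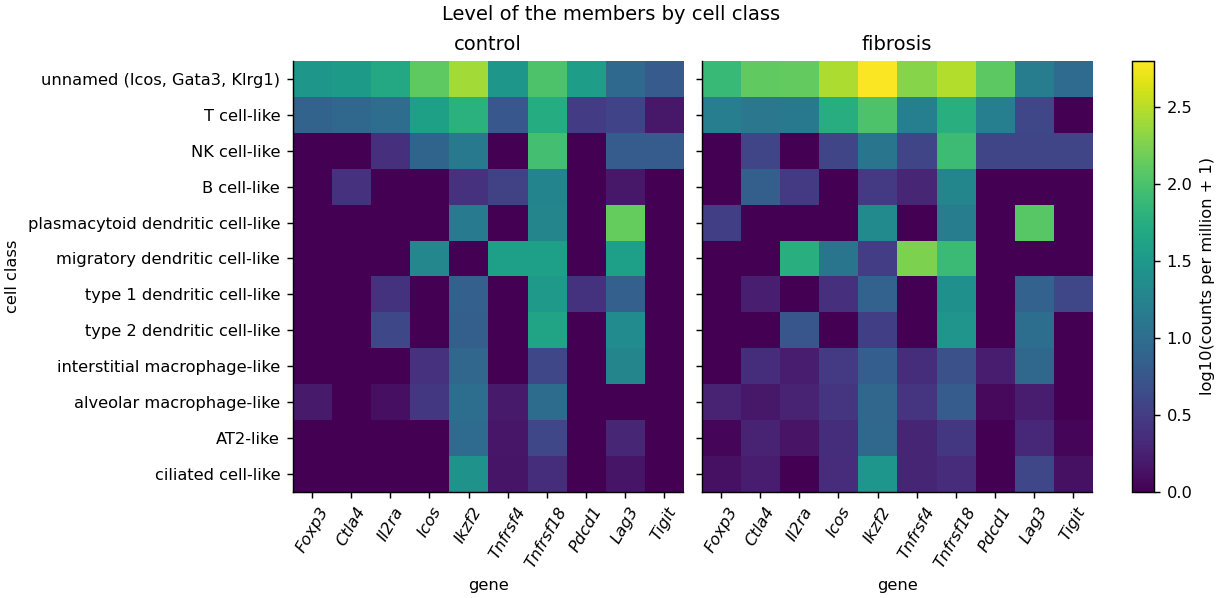
Level of the 10 genes in 12 classes of cells, as colour on a scale of log10 of CPM plus 1, in the control (left) and fibrosis (right) library; the top row is cluster 16 with all its cells, inside and outside the gate. Lag3 is highest in plasmacytoid dendritic cell-like cells (137 and 117 CPM), and Tnfrsf4 in migratory dendritic cell-like cells of the fibrosis library stands at 178 CPM.

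Several ligands of these receptors were highest in antigen-presenting or epithelial cells. In T-gated cells, 8 of 12 had at least 20 UMIs over both libraries, and of these Pdcd1lg2 (PD-L2, log2 ratio 1.61, 9 and 34 UMIs) and Nectin2 (a Tigit and Cd226 ligand, 1.38, 22 and 71 UMIs) were 2-fold higher in fibrosis and Il2 (−1.56, 19 and 8 UMIs) was 2-fold lower, against 8.14% and 2.52% of all genes tested. Their median was 0.42. Over whole libraries Pdcd1lg2 gave 89 UMIs in control and 290 in fibrosis. In fibrosis it reached 80.0 CPM (56.0 to 111) in migratory dendritic cell-like cells and 22.6 CPM in alveolar macrophage-like cells, where control had 8.56 CPM. Cd274 (PD-L1) stood at 79.2 and 83.1 CPM in alveolar macrophage-like cells, which held 56.4% and 69.9% of its UMIs. In migratory dendritic cell-like cells of the fibrosis library Cd274 stood at 99.9 CPM, Icosl at 62.2 CPM and Cd80, a Ctla4 ligand, at 48.9 CPM. Tnfsf4, the ligand of Tnfrsf4, gave 1 UMI in control and 6 in fibrosis, 5 of them in migratory dendritic cell-like cells, and Tnfsf18 gave 0 and 1.

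Genes that share chains or ligands with the set had log2 ratios near or below 0. Of 8 partners and co-receptors with enough UMIs, none was 2-fold higher and 1, Cd226, was 2-fold lower (192 and 68 UMIs, log2 ratio −1.81), against 8.14% and 2.52% of all genes tested, with a median of −0.25. Cd226 competes with Tigit for ligands and was also among the leading genes of cluster 16 beside the platelet genes. Cd4 had the highest ratio of that list, 0.11 (−0.30 to 0.52). Of 10 other checkpoint receptors, Tnfrsf9 (4-1BB, 10 and 111 UMIs, 3.16, 2.23 to 4.26) and Klrg1 (45 and 203 UMIs, 1.86) were 2-fold higher and Cd244 (−1.13) and Cd160 (−1.05), both known from NK and Cd8 T cells, were 2-fold lower, against 8.14% and 2.52% of all genes tested, with a median of 0.32.

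Of 17 other regulatory T cell genes with enough UMIs, 6 were 2-fold higher, against 8.14% of all genes tested in the gate, and 2 were lower, against 2.52%. Their median was 0.62, and that of all genes 0.10. Higher were Il1rl1, the interleukin-33 receptor (19 and 114 UMIs, 2.27, 1.57 to 3.06), Areg, which encodes the repair factor amphiregulin (11 and 62 UMIs, 2.18), Ikzf4 (2.12), Ccr4 (1.27), Itgae (1.24) and Rora (1.09). Gpr83 (−1.05, −2.42 to 0.24) and Ebi3 (−1.01, −2.01 to −0.06) were lower. Among named classes of at least 50 fibrosis cells, Areg was highest in AT1-like (141 CPM) and Rora in fibroblast-like cells (150 CPM). Itgae, Il1rl1 and Ikzf4 were highest in type 1 (180 CPM), type 2 (92.3 CPM) and migratory (62.2 CPM) dendritic cell-like cells. Ccr4 was highest in T cell-like cells, with 2 of its 36 UMIs (1.18 CPM). Cluster 16 has no name and is left out of this ranking. In its 38 Foxp3 and 132 other gated fibrosis cells, Ccr4 was found in 9 and 13, Il1rl1 in 18 and 32 and Rora in 22 and 58. Itgae was found in 7 and 22 of them, Ikzf4 in 14 and 9 and Areg in 5 and 1. The part of RNA from other cell classes in these gated sums was not tested. The 6 genes of naive T cells were all lower by less than 2-fold, each with an interval under 0, from −0.74 for Ccr7 to −0.31 for S1pr1, with a median of −0.50. In Foxp3 cells, Ccr7 was found in 1 of 16 (6.25%) and 4 of 51 (7.84%), against 41.6% and 34.8% of the other gated cells. Klrg1 was found in 4 of 16 (25%) and 30 of 51 (58.8%), against 2.07% and 6.56% of the others, and Il1rl1 in 1 of 16 (6.25%) and 23 of 51 (45.1%), against 1.38% and 4.52%.

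**Figure D5:**
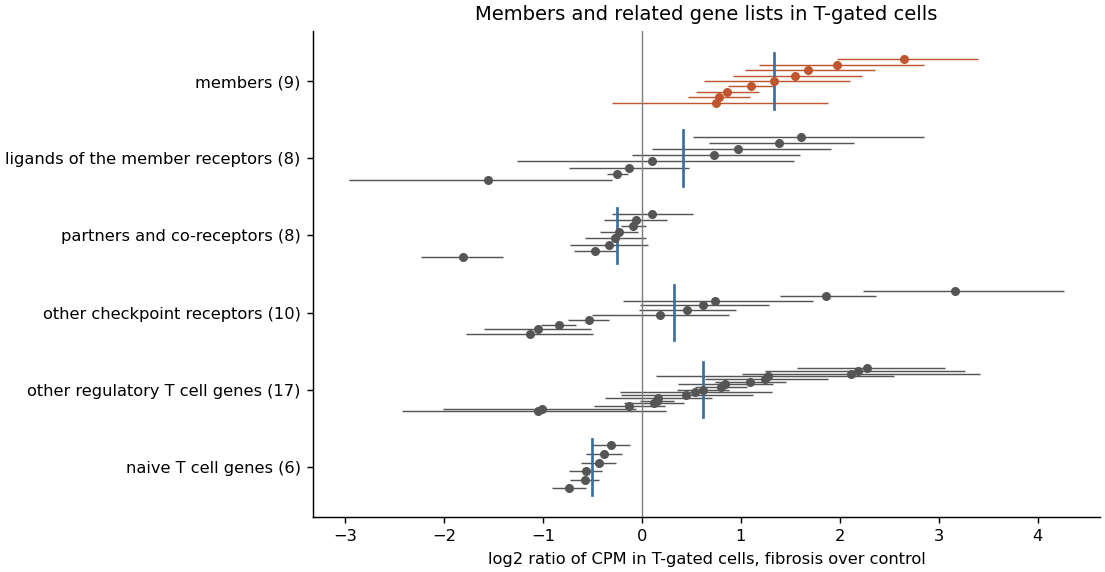
Log2 ratio of CPM in T-gated cells, fibrosis over control, for each gene with at least 20 UMIs in the set (orange, 9 genes) and in 5 related lists (grey); horizontal bars are exact conditional 95% intervals and vertical blue marks the list medians. The median is 1.34 for the set, 0.62 for other regulatory T cell genes and −0.50 for naive T cell genes.

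The genes most like Foxp3 were ranked by how much more often they were found in Foxp3 cells than in other gated cells of both libraries after thinning, over 8278 genes. The first 8 were Cdc20, Ppwd1, Klrg1, Sytl2, Tmem159, Trim2, 2610524H06Rik and Tada1. The thinned control gate had 5 Foxp3 cells, and all of these genes except Klrg1 rest on 1 of them. Klrg1 was found in 2 of the 5 control and 11 of the 22 fibrosis Foxp3 cells. Across 54 clusters by library, over 13348 genes, the gene with the highest Pearson r of log2(CPM + 1) was Podnl1 for Ctla4 (0.83), Ubash3a for Icos (0.87) and for Il2ra (0.81), Cxcr6 for Ikzf2 (0.77), Il2ra for Tnfrsf4 (0.72), Cxcr3 for Tnfrsf18 (0.81) and Cd209d for Lag3 (0.71). These clusters share 2 libraries and differ in depth, so the values describe likeness of pattern only.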

How the data were processed

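Lung suspensions of 2 mice were measured with the 10x Genomics 3′ V2 assay, 1 library each. The authors deposited raw UMI counts per gene and cell, made with bcl2fastq and Cell Ranger 1.3 on mm10, per the submitters' processing notes; the gene annotation and any cell filter are not given in the sources used here. Every deposited cell was used, the lowest totals being 1460 UMIs in control and 1915 in fibrosis, and 89 barcodes occurred in both libraries. Doublets were not removed: scrublet's own threshold marked 12 control cells (0.145%), too few to rely on, and 223 fibrosis cells (3.11%), and removal of the highest-scoring share was an alternative.

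From the deposited counts, UMIs were summed per library and set of cells and divided by the summed total (CPM). Intervals are exact at 95%: Poisson for a sum, Clopper-Pearson for a share and conditional binomial for a ratio. They cover counting error only. A share of 0 carries the limit that 3 counts allow. With 1 library a group no test between groups and no p-value was computed. A gene counted as higher or lower at 2-fold, among genes with at least 20 UMIs over both sides, and the share of all such genes past that fold is given beside it. For shares of Foxp3 cells the background was instead all other genes with a UMI in at least 20 gated cells of each library. Thinning drew 1000 UMIs per cell without replacement. The ratio script was tested on simulated counts. Cells were clustered over both libraries (scanpy 1.11.5, 2000 variable genes without listed genes, 30 components, 15 neighbours, Leiden resolution 1, igraph 0.11.9), and clusters are called by type with "-like" from marker lists, so the names may differ from the study's own. Python 3.11.15, scipy 1.17.1, numpy 2.4.6 and pandas 2.3.3 were used.

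The 10 genes, the related lists and the markers were chosen with earlier results of these data known. By rule every one of the 10 is named, with the 10 genes most like Foxp3, the genes with the most similar pattern over clusters, and list genes past 2-fold or at the ends of their list; the cluster 16 genes are its 10 leading ones. Of the 10 genes most like Foxp3, the first 8 are printed, and the rest are not reported here. Promoter sequences are from RefSeq on GRCm38.p6; Icos, Ikzf2 and Lag3 are named only.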

Additional observations from a re-analysis of the deposited data

Results flagged for a closer look

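Lag3 went opposite ways across the gate in the 2 libraries. In control, T-gated cells had a lower Lag3 CPM than the cells outside, with a log2 ratio of −0.17 (−1.16 to 0.68), and in fibrosis a higher one, with 0.85 (0.16 to 1.48). The control interval includes 0, each value comes from 1 library, and the difference between them was not tested. Plasmacytoid dendritic cell-like cells, outside the gate but for 3 control cells and 1 fibrosis cell, held 61.3% of the control and 35.2% of the fibrosis Lag3 UMIs.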

How the results depend on the processing

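No paired analysis was possible because each group had 1 library and no result came from a test. Of 100 values that answer a comparison, recomputed under the alternatives, 87 stayed within their counting interval or within 1.5 times the count and 13 moved. These 100 were counts and shares, for which a change of direction was not defined. Of 539 values of single genes, 499 stayed and 40 moved. Of the log2 ratios only that of Tigit between libraries in the gate changed sign, from 0.86 to −0.08 as a share of thinned cells, within its counting interval. The T-gated share was 8.04% in control and 9.38% in fibrosis with the gate read on thinned cells, 8.54% and 10.1% with at least 2 Cd3 UMIs, 11.7% and 14.0% whatever the Cd79a count, 8.21% and 9.98% with only gated cells of mostly gated clusters, and 12.2% in fibrosis with Cd79b and Ms4a1 also at 0. After thinning, the Foxp3 shares were 0.564% and 2.35%, and 3 of 9 genes in control, with 5 Foxp3 cells (background 13.2%), were 2-fold more frequent in Foxp3 cells; in fibrosis 7 of 9 were (24.9%). At a clustering resolution of 0.5 the cluster with most control Foxp3 held 22.2% of its UMIs, against 40.7%. The log2 ratio between libraries in the gate stayed between 1.19 and 2.06 for Foxp3, 2.25 and 2.87 for Tnfrsf4 and −0.08 and 1.28 for Tigit over 14 alternatives. The gates whatever the Cd79a count, on thinned cells and of mostly gated clusters were chosen after seeing the data. Depth limits Lag3 and Tigit most, with 12 and 25 UMIs and with 4 and 9 UMIs in the control and fibrosis gates.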

Other observations

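Within the gated cells of cluster 16, further genes followed Foxp3 in the fibrosis library. Klrg1 was found in 26 of 38 Foxp3 cells (68.4%) against 31.8% of 132 others, Tnfrsf9 in 15 of 38 (39.5%) against 9.85%, Il1rl1 in 18 of 38 (47.4%) against 24.2% and Areg in 5 of 38 (13.2%, 4.41 to 28.1) against 1 of 132 (0.758%). Gata3 was found in 55.3% against 45.5%. In the 8 control Foxp3 cells of the cluster, Klrg1 was found in 4, Il1rl1 in 1 and Areg and Tnfrsf9 in 0. Cd4 was found in 7 of these 8 control cells (87.5%) and in 11 of the 38 fibrosis cells (28.9%). These genes were chosen after their values were seen, and the differences were not tested.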
